A study of Mus musculus with 8 samples.

Results

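Lipid-associated macrophages were sought among single nuclei of mouse liver by the transcripts of 4 genes, Gpnmb, Trem2, Mmp12 and Atp6v0d2. A member was a nucleus with at least 300 detected genes, at least 2 unique molecular identifiers (UMIs, each a tagged RNA molecule) over those 4 genes, at least 1 UMI over the leukocyte and macrophage genes Ptprc, Csf1r, Adgre1, Mrc1 and Cd68, and at most 1 UMI over Stab2, Reln, Pkhd1, Cd3e and Pax5, which mark endothelial, stellate, biliary, T and B cells. The rule gave 433 members of 59446 nuclei in 7 libraries. The whole series holds 80575 barcodes. Its eighth library, with exactly 20000 barcodes, is left out by the rule.

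Each library was made from nuclear RNA of the snap-frozen liver of 1 male DIAMOND mouse (129A1/SvIm and C57BL/6J cross), with the 10x Genomics 3′ chemistry. In the WD tumour group (3 mice) the Western diet, rich in fat and with sugar in the water, was fed for 48 weeks and hepatocellular carcinoma developed. The RD no tumour group (3 mice) and the RD tumour group went back to standard chow after 36 weeks of that diet. They differ in outcome: no carcinoma was detectable in the first, and carcinoma developed in the second. Only 1 of the 2 RD tumour mice, RD tumour 2, is inside the rule, so this group has values but no spread. Every group had the Western diet first, and no mouse kept on chow was analysed here. The labels give the tissue as whole liver and do not say whether tumour was separated from it. Diets began at 2 months of age, and the labels put the end of the study at 48 weeks of age, which disagrees with 48 weeks of diet. Time on the Western diet, time on chow and outcome cannot be told apart between WD tumour and RD no tumour.

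Lipid-associated macrophages are a state known from fatty liver and obese adipose tissue, in which macrophages take up lipid and cell debris and break them down in lysosomes. Trem2 is a lipid-sensing receptor of that state, Gpnmb a glycoprotein of lysosomes and the cell surface, and Mmp12 a secreted elastase of macrophages. Atp6v0d2 is a subunit of the proton pump (V-ATPase) that acidifies lysosomes, best known from macrophages and osteoclasts. The liver's resident macrophages are Kupffer cells, marked by Clec4f, Vsig4, Cd5l and Timd4, and monocytes arriving from blood can replace them.

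The genes of the rule lie on different chromosomes. In GENCODE M21 (GRCm38), Gpnmb lies on chromosome 6 (49036546 to 49070929), Trem2 on chromosome 17 (48346401 to 48354147), Mmp12 on chromosome 9 (7344381 to 7369499) and Atp6v0d2 on chromosome 4 (19876841 to 19922605, minus strand). The 250 bases before the RefSeq start of 3 of these genes (GRCm38.p6, plus strand) are shown because these genes chose the nuclei and were detected together in many of them. Capitals mark a match to 1 of 3 motifs searched on both strands.
Gpnmb, chr6:49036268-49036517: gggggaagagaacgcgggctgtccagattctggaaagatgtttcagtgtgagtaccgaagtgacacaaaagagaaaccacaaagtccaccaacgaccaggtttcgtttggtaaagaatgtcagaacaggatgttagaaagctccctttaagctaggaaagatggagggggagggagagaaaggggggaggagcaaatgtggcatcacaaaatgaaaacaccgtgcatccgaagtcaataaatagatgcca
Trem2, chr17:48346151-48346400: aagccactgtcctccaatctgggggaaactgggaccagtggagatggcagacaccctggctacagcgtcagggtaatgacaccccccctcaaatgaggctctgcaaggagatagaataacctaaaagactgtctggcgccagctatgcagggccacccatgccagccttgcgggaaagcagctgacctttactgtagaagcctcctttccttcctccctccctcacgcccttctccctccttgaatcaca
Mmp12, chr9:7344147-7344396: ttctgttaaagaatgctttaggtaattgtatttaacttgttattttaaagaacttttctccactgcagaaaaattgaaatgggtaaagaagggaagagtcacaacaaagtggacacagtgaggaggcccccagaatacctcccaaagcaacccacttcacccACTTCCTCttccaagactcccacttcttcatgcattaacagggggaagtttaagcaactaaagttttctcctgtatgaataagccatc

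The E-box of the MiT/TFE factors was searched as CACGTG and as CATGTG with its reverse complement. The PU.1 type ETS site was searched as ACTTCCTC and its reverse complement, and the AP-1 site as TGACTCA and its reverse complement. No letters of 1 motif hold another. The Mmp12 window holds 1 PU.1 type match, from 88 to 81 bases before the start, and the Gpnmb and Trem2 windows hold these letters nowhere. Of 32851 RefSeq windows of the same length, 17.6% hold an E-box of this kind, 2.44% a PU.1 type site and 4.46% an AP-1 site. A match is a description of letters and not a measured binding site. A window at a second Mmp12 start holds 1 E-box and 1 AP-1 match. No entry was found for Atp6v0d2.

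The members fell into sets that differed in the genes that admitted them. At least 2 of the 4 genes were detected in 204 members (47.1%), 1 of Gpnmb, Trem2 and Mmp12 alone in 104 (24.0%), and Atp6v0d2 alone in 125 (28.9%). The most frequent combinations after Atp6v0d2 alone were Gpnmb alone (43 nuclei), Gpnmb with Atp6v0d2 (38) and Trem2 alone (36), and the 4 genes occurred together in 23 nuclei. At the threshold, 186 members had exactly 2 UMIs of the 4 genes and 247 had at least 3. Just outside it were 1024 nuclei with exactly 1 UMI that met the other conditions, and in 378 of these the UMI was of Atp6v0d2.

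The 125 nuclei with Atp6v0d2 alone went against the label on the 2 gene lists used here. Each member was scored for 10 hepatocyte genes (Egfr, Lgr5, Slc1a2, Robo1, Adra1a, Cyp7a1, Ghr, Abcb11, Gna14 and Nox4) and 10 leukocyte genes (Dock2, Cd84, Inpp5d, Myo1f, Slc9a9, Arhgap25, Runx1, Ctss, Mertk and Tbxas1), both lists chosen after values were seen, as UMIs per 1000000 UMIs of the nucleus (CPM). In the nuclei with Atp6v0d2 alone the median was 7650 CPM for the hepatocyte genes and 137.8 CPM for the leukocyte genes. The hepatocyte sum was the higher in 107 of 125 (85.6%), and 48 had no UMI of the 10 leukocyte genes. In the nuclei with at least 2 of the 4 genes the medians were 523.4 CPM for hepatocyte and 6757 CPM for leukocyte genes, and the hepatocyte sum was the higher in 35 of 204 (17.2%). In those with 1 of Gpnmb, Trem2 and Mmp12 alone it was the higher in 13 of 104 (12.5%). Since both lists were chosen after values were seen, these scores describe the nuclei and do not test what they are. A separate list of 12 hepatocyte markers, given further on, was mostly lower in the nuclei with Atp6v0d2 alone than in Kupffer nuclei. Pooled over the mice, Cps1, Cyp2e1 and Hnf4a were higher in them and the others lower. In what follows the nuclei with Atp6v0d2 alone are called by that gene and not as macrophages.

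**Figure D1:**
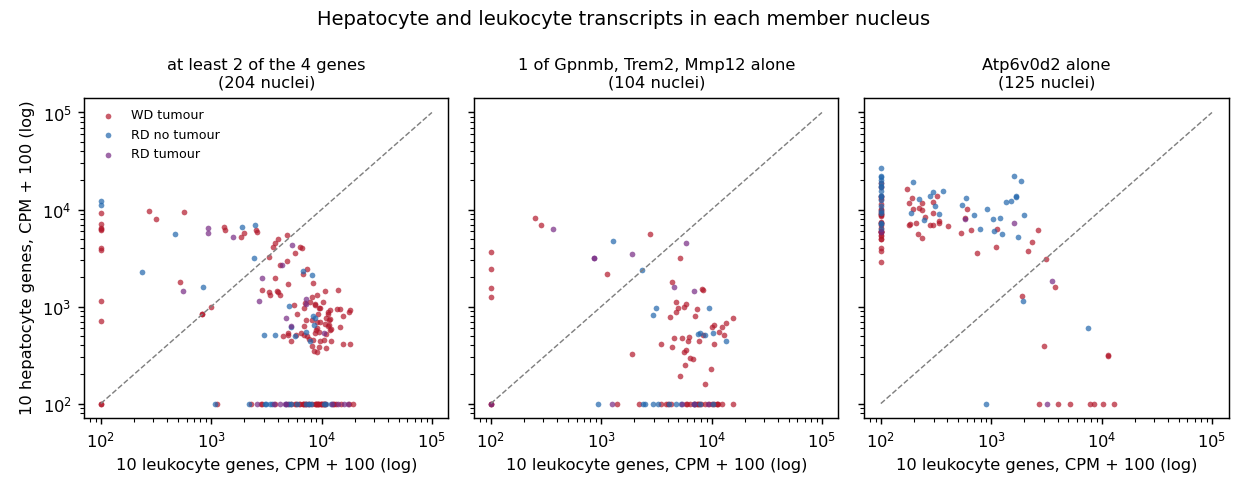
Each point is 1 member nucleus, coloured by group, with its CPM (plus 100, log axes) over 10 leukocyte genes on the x axis and 10 hepatocyte genes on the y axis, and the dashed line marks equal values. In the right panel 107 of the 125 nuclei with Atp6v0d2 alone lie above the line, against 35 of 204 in the left panel.

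Atp6v0d2 was also read outside the members. Hepatocyte nuclei were taken as those with at least 20 UMIs of the 10 hepatocyte genes, none of the 5 leukocyte and macrophage genes of the rule and none of its 5 genes of other cell types, a rule chosen after values were seen. An Atp6v0d2 UMI was present in 7.64%, 19.5% and 12.2% of them in WD tumour 1 to 3, in 14.6%, 3.57% and 8.21% in RD no tumour 1 to 3, and in 5.61% in RD tumour 2. Shares were highest in WD tumour 2 and RD no tumour 1, the mice with the most members of Atp6v0d2 alone (43 and 34). Counts of that set in the other mice were 10 and 21 in WD tumour 1 and 3, 2 and 10 in RD no tumour 2 and 3, and 5 in RD tumour 2. The set also had the largest nuclei, with a median of 6606 UMIs against 2679 for members with at least 2 genes. It held 45.8% of the members' UMIs. Droplets called as doublets, in which more than 1 nucleus was captured, made up 16.8% of it and 10.8% of the members with at least 2 genes. They made up 7.83% of all nuclei, but 11.9% of Kupffer and 11.4% of monocyte nuclei, both defined further on. Of the nuclei with exactly 1 UMI of the 4 genes they were 12.4%. RD no tumour 1 gave 14 of the 21 calls in the set with Atp6v0d2 alone, which had 7 calls in 91 nuclei (7.69%) without it. WD tumour 3 gave 15 of the 22 calls in the set with at least 2 genes, which had 7 in 111 (6.31%) without it. The part of doublets and of RNA free in the suspension in these nuclei was not tested.

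Other markers were read in the same sets. The 11 Kupffer markers, summed over the nuclei of a mouse, ranged from 1107 to 3079 CPM in the members with at least 2 genes and from 180 to 656 CPM in the nuclei with Atp6v0d2 alone. In Kupffer nuclei, defined further on, they ranged from 2738 to 4942 CPM, and in monocyte nuclei from 545 to 975 CPM. The 10 monocyte markers ranged from 93.5 to 1707 CPM in the members with at least 2 genes and from 1104 to 3316 CPM in monocyte nuclei. In that set the 10 T and NK cell markers ranged from 0 to 281 CPM per mouse and the 7 B cell markers from 22.6 to 491 CPM, of which Bank1, also read in Kupffer nuclei, made up most. The exclusion genes of the rule are among these lists, so their low values were fixed by selection. Hepatocyte transcripts were present in every class: the 12 hepatocyte markers, among them Alb and Apoa1, summed to between 17910 and 91630 CPM in the members with at least 2 genes and between 28190 and 37200 CPM in Kupffer nuclei. In the nuclei with Atp6v0d2 alone this sum, from 19880 to 30960 CPM, overlapped that of the other classes. Cps1, a marker of that list, was higher in them than in Kupffer nuclei of the same mouse in 7 of 7 mice. Pooled over the mice, Cyp2e1 and Hnf4a were also higher in them. The other markers of the list were lower than in Kupffer nuclei, among them Alb (6682 against 9450 CPM) and Ttr (1069 against 2181 CPM).

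The levels of the genes that chose the members varied between mice. Over all members Gpnmb was at 499, 58.6 and 668 CPM in WD tumour 1 to 3, at 146, 277 and 81.3 CPM in RD no tumour 1 to 3, and at 1152 CPM in RD tumour 2. Trem2 was at 118, 115 and 125 CPM in WD tumour 1 to 3, at 99.3, 122 and 34.8 CPM in RD no tumour 1 to 3, and at 42.7 CPM in RD tumour 2. Gpnmb was thus highest in RD tumour 2 and lowest in WD tumour 2, and its groups overlapped, while Trem2 was near 100 CPM except in RD no tumour 3 and RD tumour 2. The members held between 21.2% and 61.8% of a library's Gpnmb UMIs and between 6.00% and 26.7% of its Atp6v0d2 UMIs. For Trem2 the range was 10.7% to 36.8%, and for Mmp12 it was 4.17% to 72.0%. These values describe what the rule selected.

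Members made up more of the nuclei in each WD tumour mouse than in any reversed mouse inside the rule. They numbered 60, 89 and 142 in WD tumour 1 to 3, which is 0.929%, 1.26% and 1.60% of the nuclei. They numbered 73, 16 and 14 in RD no tumour 1 to 3, which is 0.711%, 0.265% and 0.135%, and 39 (0.376%) in RD tumour 2. The exact 95% binomial interval (Clopper-Pearson, counting error only) of WD tumour 1, from 0.710% to 1.19%, overlaps that of RD no tumour 1, from 0.557% to 0.893%. The mean share was 1.26% ± 0.336 (SD, n = 3) in WD tumour and 0.370% ± 0.302 (SD, n = 3) in RD no tumour, a difference of 0.893 percentage points. The two-sided exact permutation test over mice gave p = 0.1, the smallest that 3 against 3 mice allow, so the test could not pass 0.05. Against all 4 reversed mice the difference was 0.892 points, and the exact permutation test gave p = 0.0571, again the smallest possible. The share of mitochondrial UMIs also differed between the mice, with a median over all nuclei of 7.91%, 2.77% and 7.51% in WD tumour 1 to 3 and of 1.30% to 3.28% in the reversed mice. Among nuclei with at most 5% mitochondrial UMIs the difference in the share of members from RD no tumour was 1.60 points. That filter kept 2284 of 6457, 4730 of 7068 and 3275 of 8871 nuclei in WD tumour 1 to 3. In RD no tumour 1 to 3 it kept 9770 of 10275, 4357 of 6048 and 9106 of 10351. It kept 39 of 60, 82 of 89 and 83 of 142 members in WD tumour 1 to 3, a larger part than of all nuclei, which raises their share. The part of RNA quality in this difference was not tested.

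**Figure D2:**
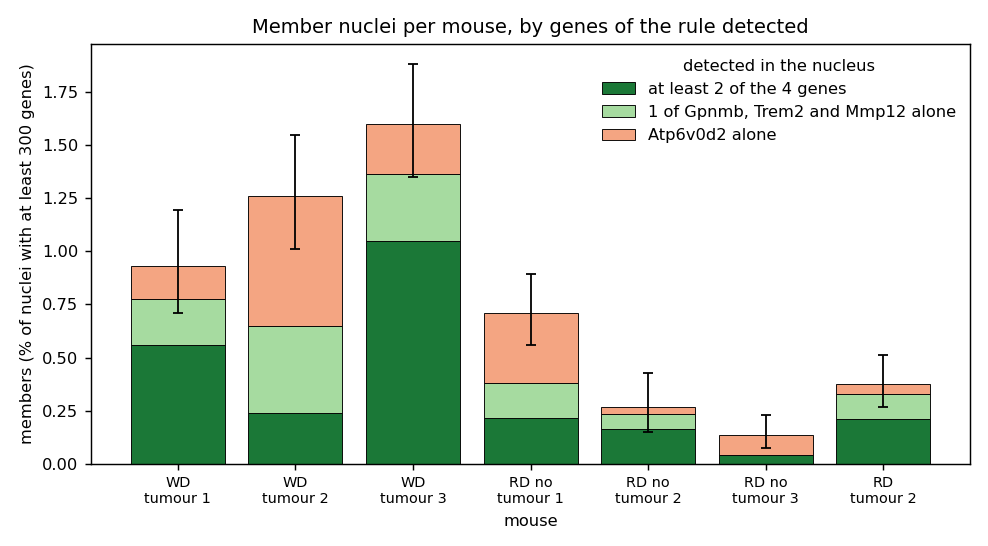
Members as a percent of nuclei with at least 300 genes (y axis) in each of 7 mice (x axis), split by the genes detected, with the exact 95% binomial interval of the total. Totals run from 0.929% to 1.60% in WD tumour and from 0.135% to 0.711% in the reversed mice, and the set with Atp6v0d2 alone is largest in WD tumour 2 and RD no tumour 1.

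The order of the mice rested partly on the nuclei with Atp6v0d2 alone. Members with at least 2 of the 4 genes made up 0.558%, 0.241% and 1.05% of nuclei in WD tumour 1 to 3, 0.214%, 0.165% and 0.0386% in RD no tumour 1 to 3, and 0.212% in RD tumour 2. WD tumour 3 stood above the rest, and WD tumour 2 was close to RD no tumour 1, with no overlap between the groups at the deposited depth. The difference from RD no tumour was 0.476 points, and the two-sided exact permutation test over mice gave p = 0.1. As a share of nuclei that met only the conditions on the macrophage and other cell type genes, members were 3.89%, 2.82% and 6.71% in WD tumour 1 to 3, 1.57%, 0.940% and 0.713% in RD no tumour 1 to 3, and 1.11% in RD tumour 2. The groups did not overlap on that scale either (exact permutation test over mice, p = 0.1).

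Depth per nucleus moved with membership. Members had a higher median UMI count (1723 to 4871.5) than the nuclei of their library as a whole (1120 to 2656) in 7 of 7 mice. After each nucleus was thinned at random to 1000 UMIs, with shallower nuclei left out (417 to 4632 per mouse), the share was 0.590%, 0.228% and 1.29% in WD tumour 1 to 3. It was 0.251%, 0.124% and 0.0266% in RD no tumour 1 to 3 and 0.331% in RD tumour 2. At this depth WD tumour 2 fell below RD no tumour 1 and RD tumour 2, so the groups overlapped. The difference from RD no tumour was 0.569 points, and the exact permutation test over mice gave p = 0.2. For members with at least 2 genes the share at 1000 UMIs was 0.307%, 0.104% and 0.919% in WD tumour 1 to 3, 0.143%, 0.107% and 0.0266% in RD no tumour 1 to 3 and 0.226% in RD tumour 2. WD tumour 2 lay below RD no tumour 1 and 2, and the exact permutation test over mice gave p = 0.3 for a difference of 0.351 points. At 500 UMIs only 0 to 40 members per mouse were left, and the exact permutation test over mice gave p = 0.1 for a difference of 0.204 points.

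**Figure D3:**
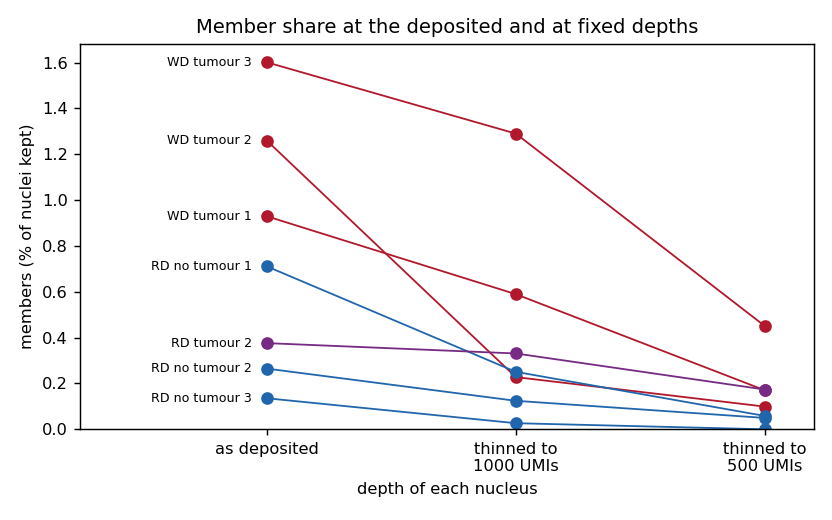
Members as a percent of the nuclei kept (y axis) at the deposited depth and with each nucleus thinned to 1000 or 500 UMIs (x axis), 1 line per mouse coloured by group (red WD tumour, blue RD no tumour, purple RD tumour). The line of WD tumour 2 falls from 1.26% to 0.228% at 1000 UMIs and enters the range of the reversed mice.

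Members with at least 2 of the 4 genes had more transcripts of Lpl, Cd36, Adam8 and Myo5a than Kupffer nuclei of the same mice, and fewer of the Kupffer markers Cd163 and Cdh5. Kupffer nuclei (3595) were those with at least 2 UMIs over Clec4f, Vsig4, Cd5l and Timd4 and none of the 4 genes of the rule, under the same other conditions. UMIs were summed per mouse and class and tested with edgeR's quasi-likelihood test with the mouse as a block, over the 6 mice with at least 10 such nuclei (RD no tumour 3 had 4). Of 7086 genes tested outside both rules, 82 passed an adjusted p of 0.05 (1.16% of genes tested), 56 higher (0.79%) and 26 lower (0.367%) in members. The direction was the same in every mouse for 60 of them (0.847%). Leading with this set, an alternative of the rule, was decided after the nuclei with Atp6v0d2 alone were seen. Other genes of a nucleus were not used by either rule, but deeper nuclei meet both more easily.

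Adam8, a membrane-bound metalloprotease of leukocytes, had the highest fold change. Its level in members was 25.0, 31.3 and 161 CPM in WD tumour 1 to 3, 97.5 and 33.8 CPM in RD no tumour 1 and 2, and 62.3 CPM in RD tumour 2. In Kupffer nuclei Adam8 was between 1.29 and 9.09 CPM. Every mouse was higher in members and the classes did not overlap, with 2 to 50 Adam8 UMIs behind each member value. The log2 fold change of Adam8 was 3.81 (SE 0.464; adjusted p 1.30e-05, edgeR's quasi-likelihood test with Benjamini-Hochberg adjustment).

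Myo5a, a motor of vesicle transport, and Tenm4, a large transmembrane adhesion protein, were also higher in every mouse. Myo5a was at 225, 31.3 and 309 CPM in members of WD tumour 1 to 3, at 163 and 11.3 CPM in RD no tumour 1 and 2, and at 374 CPM in RD tumour 2, against 3.88 to 26.7 CPM in Kupffer nuclei. Tenm4 was at 558, 219 and 277 CPM in WD tumour 1 to 3, at 130 and 56.4 CPM in RD no tumour 1 and 2, and at 249 CPM in RD tumour 2, against 10.8 to 67.0 CPM in Kupffer nuclei. RD no tumour 2 had the lowest member value of both, from 1 and 5 UMIs. The log2 fold change was 3.17 (SE 0.354) for Myo5a and 2.93 (SE 0.290) for Tenm4, with adjusted p of 2.81e-06 and 3.11e-07 (edgeR's quasi-likelihood test with Benjamini-Hochberg adjustment). Igf2bp2, an RNA-binding protein, rose by 3.04 on the log2 scale and Xylt1, which starts glycosaminoglycan chains, by 2.67. Further down the list Atf3, a stress-induced transcription factor, rose by 2.58, the adhesion gene Flrt2 by 2.09, the ubiquitin ligase gene Fbxo32 by 1.95, Ifitm10 by 1.85, and Lrp12, a low-density lipoprotein receptor relative, by 1.73. Gpr137b, a lysosomal membrane protein, rose by 1.55 and Aig1, a hydrolase of branched fatty acid esters, by 1.55. The antisense genes Gm13963 (3.65) and Gm15261 (1.70) were also higher, and their counts cannot be told apart from those of the gene on the other strand unless strand was used in counting, which is not stated. Atf3, Flrt2, Fbxo32, Gm15261 and Gpr137b lost their calls without the mouse block, and Ifitm10 lost its call without RD no tumour 1.

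Of 23 listed genes of lipid-associated macrophages outside the rule, 20 were tested, 5 rose against Kupffer nuclei (Lpl, Cd36, Lgals3, Cd63 and Cd9) and none fell. Their median log2 fold change was 0.68, against -0.03 over all genes tested. Lpl, the lipase that frees fatty acids from triglyceride, was at 416, 156 and 814 CPM in members of WD tumour 1 to 3, at 309 and 135 CPM in RD no tumour 1 and 2, and at 77.9 CPM in RD tumour 2. In Kupffer nuclei of the same mice Lpl was at 70.7, 137, 136, 17.4, 29.8 and 27.2 CPM. Lpl was higher in members of 6 of 6 mice, least so in WD tumour 2, where 156 stood against 137. Its log2 fold change was 2.28 (SE 0.335; adjusted p 0.000229, edgeR's quasi-likelihood test with Benjamini-Hochberg adjustment). Without the mouse block the adjusted p of Lpl was 0.157.

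Cd36, a scavenger receptor and fatty acid transporter, was at 291, 313 and 405 CPM in members of WD tumour 1 to 3, at 146 and 113 CPM in RD no tumour 1 and 2, and at 203 CPM in RD tumour 2, against 44.0 to 146 CPM in Kupffer nuclei. It was higher in 6 of 6 mice, by 1.43 on the log2 scale (adjusted p 0.000548, edgeR's quasi-likelihood test with Benjamini-Hochberg adjustment; 0.0935 without the mouse block). Lgals3, the lectin galectin-3 of damaged lysosomes and phagocytes, was at 324, 156 and 396 CPM in WD tumour 1 to 3, at 163 and 169 CPM in RD no tumour 1 and 2, and at 358 CPM in RD tumour 2. In Kupffer nuclei Lgals3 was between 31.6 and 184 CPM, and WD tumour 2 was the mouse in which members were lower. Its log2 fold change was 1.68 (adjusted p 0.00373, edgeR's quasi-likelihood test with Benjamini-Hochberg adjustment; 0.117 without the mouse block). The tetraspanins Cd9 (1.27) and Cd63 (1.25) passed closer to the threshold, at adjusted p of 0.0453 and 0.0390, and each lost its call without RD no tumour 1, RD tumour 2, WD tumour 1 or WD tumour 3, left out 1 at a time. Spp1 (osteopontin) had a log2 fold change of 0.76 with an adjusted p of 0.729.

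**Figure D4:**
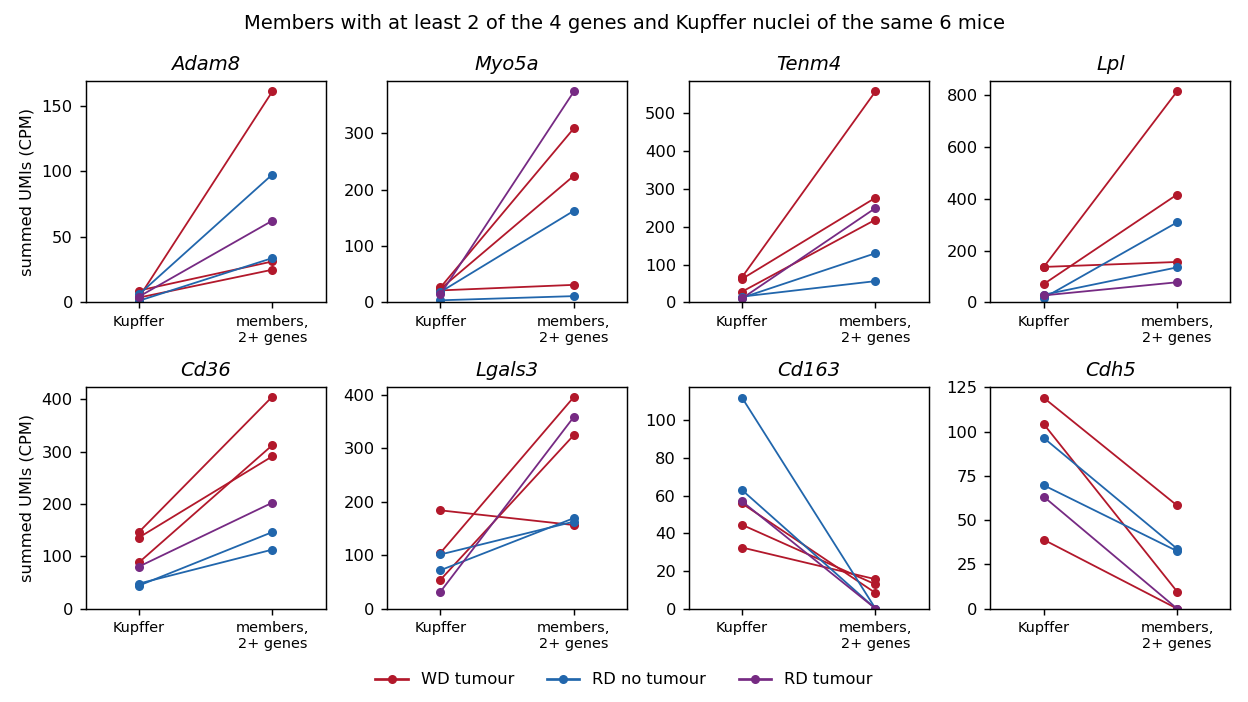
Summed UMIs as CPM (y axis, linear) of 8 genes in Kupffer nuclei (left) and in members with at least 2 of the 4 genes (right) of the same 6 mice, joined by mouse and coloured by group. Lines rise in 6 of 6 mice for Adam8, Myo5a, Tenm4, Lpl and Cd36, in 5 of 6 for Lgals3, and fall in 6 of 6 for Cd163 and Cdh5.

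Few genes of the other lists passed against Kupffer nuclei. Of 26 lysosome and V-ATPase genes 23 were tested, and 2 rose, among them Atp6v0a1, another membrane subunit of the pump (1.29). The group's median was 0.17. Of 21 regulators 20 were tested and St18, a zinc finger transcription factor, rose by 1.35 (adjusted p 0.0103, edgeR's quasi-likelihood test with Benjamini-Hochberg adjustment). Left out 1 at a time, RD no tumour 1, WD tumour 1 and WD tumour 3 each ended the call of St18, and so did omitting the mouse block. Atp6v0a1 lost its call without RD tumour 2 or WD tumour 3. Of 19 genes of lipid uptake, storage and efflux 17 were tested with a median of 0.25, and the 2 that rose, Lpl and Cd36, also stand in the list of lipid-associated macrophage genes. None of 5 tested genes of MHC class II, 14 of efferocytosis and complement, 9 inflammatory cytokine, chemokine and receptor genes or 12 hepatocyte markers passed. The medians were -0.06, -0.05, -0.22 and -0.13.

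Of 6 tested Kupffer markers outside the rule, Cd163 and Cdh5 fell in members and none rose, with a median of -1.02, against nuclei that were themselves chosen by 4 other Kupffer genes. Cd163, the haemoglobin scavenger receptor, was at 8.32, 15.6 and 12.9 CPM in members of WD tumour 1 to 3, and no UMI was counted in RD no tumour 1 and 2 or RD tumour 2. In Kupffer nuclei Cd163 was between 32.5 and 112 CPM, above every member value. It fell by 2.75 on the log2 scale (adjusted p 0.00372, edgeR's quasi-likelihood test with Benjamini-Hochberg adjustment), a value that rests on 6 Cd163 UMIs in the members. Cdh5, the vascular cadherin also read in Kupffer cells, fell by 2.05, the complement inhibitor Cd55 by 2.00, the adhesion receptor Adgre4 by 1.95, the leptin receptor Lepr by 1.72, the adaptor Bank1 by 1.66 and Pecam1 by 1.41. Ctla2b fell by 1.93, but has a near-identical neighbour that could share its reads. Hyal5 (1.85), the antisense gene Gm31243 (1.82) and Me2 (1.78) fell as well. Without the mouse block Cd163 and Lepr kept their calls, and Cdh5, Cd55, Adgre4, Bank1, Pecam1, Ctla2b, Hyal5, Gm31243 and Me2 lost them. Without WD tumour 3 the calls of Cdh5, Pecam1, Hyal5, Bank1 and Me2 were lost, and Bank1 and Me2 were also lost without RD no tumour 1 or RD tumour 2.

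With all 433 members the contrast with Kupffer nuclei called more genes. Of 8052 genes, 1457 passed (18.1% of genes tested), 881 higher (10.9%) and 576 lower (7.15%), and 671 had the same direction in every mouse (8.33%). Of the 12 hepatocyte markers Cps1 and Hnf4a rose and none fell, a share near that over all genes, and 3 were positive, with a median of -0.15. Cps1, a urea cycle enzyme, was at 1970, 1039 and 2420 CPM in all members of WD tumour 1 to 3, 2319, 2911 and 3993 CPM in RD no tumour 1 to 3 and 2133 CPM in RD tumour 2. In the nuclei with Atp6v0d2 alone it was between 1480 and 4537 CPM, and in Kupffer nuclei between 359 and 1988 CPM. Cps1 (0.85) and the hepatocyte transcription factor Hnf4a (0.90) passed with all members, as did Nox4 (1.78), which is in the hepatocyte list chosen after values were seen, and the bile acid enzyme Akr1d1 (1.42). With at least 2 genes required the values were 0.24 for Cps1, -0.03 for Hnf4a, 0.11 for Nox4 and 0.32 for Akr1d1, with an adjusted p of 0.999 each (edgeR's quasi-likelihood test with Benjamini-Hochberg adjustment). Alcam, a cell adhesion molecule, passed in both, at 1.49 and 1.46.

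Complement genes also moved with the choice of members. The 3 chains of C1q, the complement component that macrophages make and that tags debris for uptake, fell in all members against Kupffer nuclei, by 1.21 (C1qa), 0.99 (C1qb) and 1.20 (C1qc) on the log2 scale. With at least 2 genes required the log2 fold changes were -0.89 for C1qa (adjusted p 0.0699), -0.27 for C1qb (adjusted p 0.989) and -0.48 for C1qc (adjusted p 0.794, edgeR's quasi-likelihood test with Benjamini-Hochberg adjustment). C1qb was at 333, 594 and 203 CPM in that set in WD tumour 1 to 3, and at 41.9, 124 and 23.1 CPM in the nuclei with Atp6v0d2 alone of the same mice. The nuclei with Atp6v0d2 alone were the lower in each of these mice, and Kupffer nuclei held 337, 410 and 366 CPM of C1qb. Mertk, the receptor for uptake of dying cells, fell by 0.72 with all members, and its log2 fold change was -0.15 (adjusted p 0.999) with at least 2 genes required. Maf, a transcription factor of resident macrophages, fell by 1.10 with all members and had a value of -0.61 (adjusted p 0.472, edgeR's quasi-likelihood test with Benjamini-Hochberg adjustment) with at least 2 genes required.

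Against monocyte nuclei the members with at least 2 genes had more transcripts of Cd36, Lpl, Igf2r and the Kupffer gene Slc40a1, and fewer of Ripor2 and Cd74. Monocyte nuclei (1078) were chosen by at least 2 UMIs over Ccr2, F13a1, Ly6c2 and Chil3, otherwise as Kupffer nuclei were. RD no tumour 1 held 807 of them. Over all mice the class also read neutrophil genes, with S100a9 at 709 CPM against 43.8 CPM in these members. Of 2330 genes tested in the 6 mice, 109 passed (4.68%), 76 higher (3.26%) and 33 lower (1.42%) in members. With the same direction in every mouse required, 80 passed (3.43%). With all members the count was 820 of 3876 genes (21.2%), 511 higher (13.2%) and 309 lower (7.97%), of which 395 had the same direction in every mouse (10.2%).

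Cd36 was at 53.9, 61.3 and 47.4 CPM in monocyte nuclei of WD tumour 1 to 3, at 50.5 and 22.4 CPM in RD no tumour 1 and 2, and at 37.7 CPM in RD tumour 2, below every value in members (113 to 405 CPM). Its log2 fold change was 2.34 (SE 0.286; adjusted p 0.000207, edgeR's quasi-likelihood test with Benjamini-Hochberg adjustment). Lpl rose by 2.48 (SE 0.354; adjusted p 0.000916). Of 16 tested genes of lipid uptake, storage and efflux, 6 rose (Cd36, Lpl, the cholesterol exporter Abca1, the scavenger receptors Msr1 and Lrp1, and the droplet protein Plin2), none fell, and the median was 0.66 against 0.04 over all genes tested. Without WD tumour 3, WD tumour 1 or RD tumour 2 the calls of Plin2 (0.83), Lrp1 (0.92), Msr1 (1.10) and Abca1 (1.51) were each lost, and Cd36 and Lpl kept it in each of the 9 alternatives tried. Ctsb, the lysosomal protease cathepsin B, rose by 1.35.

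Among the genes with the highest fold changes were Igf2r, the mannose 6-phosphate receptor that carries enzymes to lysosomes (2.28), and Airn (2.47), which overlaps it on the other strand, so that reads of the pair may not be separable. Aig1 (2.47), the leukocyte receptor Cd84 (2.26), the membrane repair gene Myof (2.22), the calcium channel gene Cacna1a (2.13), Rgs1 (2.12), Arhgap10 (2.04), the scavenger receptor Colec12 (1.95), Gpr137b (1.94) and the adhesion molecule Vcam1 (1.73) rose. Fnip2, a folliculin partner in nutrient sensing at the lysosome, rose by 2.04, and against Kupffer nuclei by 1.36. Gm11099 rose by 3.41. St18 rose by 2.51 and Mitf, a regulator of lysosomal genes, by 1.09. St18 kept its call in 8 alternatives, and Mitf lost it in 7 of 9, among them 5 single mice left out. The V-ATPase genes Atp6v1b2 (1.39), Atp6v1a (1.13) and Tcirg1 (0.98) rose, of which Atp6v1b2 kept its call in 9 alternatives. Without WD tumour 3 the calls of Atp6v1a, Tcirg1, Myof and Rgs1 were lost.

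The 4 Kupffer markers tested rose in members against monocyte nuclei, with a median of 1.58. Slc40a1, the iron exporter ferroportin, was at 840, 328 and 367 CPM in members of WD tumour 1 to 3, at 634 and 316 CPM in RD no tumour 1 and 2, and at 312 CPM in RD tumour 2, and in monocyte nuclei between 65.4 and 219 CPM. Members were above every monocyte value, and the log2 fold change was 1.73 (SE 0.279; adjusted p 0.00177, edgeR's quasi-likelihood test with Benjamini-Hochberg adjustment). Cd5l (1.58), Clec4f (1.59) and Vsig4 (1.37) were the others, and Clec4f and Vsig4 each lost the call without WD tumour 1 or WD tumour 3.

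With the filter on low counts 33 of 2330 genes tested were lower and 76 higher in members. With no filter 124 of 19838 were lower and 92 higher. Ripor2 was at 25.0, 78.1 and 51.5 CPM in members of WD tumour 1 to 3, at 81.3 and 45.1 CPM in RD no tumour 1 and 2 and at 31.2 CPM in RD tumour 2, against 170 to 363 CPM in monocyte nuclei. It fell by 2.21 on the log2 scale (adjusted p 0.000821, edgeR's quasi-likelihood test with Benjamini-Hochberg adjustment). Mctp2 (1.93), Grap2 (1.93), Dipk1a (1.87), Arhgap45 (1.87), Clec2g (1.80) with its antisense neighbour Gm15987 (1.79), Arhgap26 (1.76), Pld4 (1.75) and Ptpn22 (1.60), the phosphatase that restrains antigen receptor signalling, fell by these log2 values. Of 4 tested genes of MHC class II, H2-Aa and its chaperone Cd74 fell, by 1.48 and 1.29. Both lost the call without the mouse block, without RD no tumour 1 and without RD tumour 2. Cd74 also lost it without WD tumour 3, and H2-Aa without WD tumour 2. Runx2 fell by 1.18 and lost the call without any 1 of 5 mice. Without WD tumour 3 the calls of Mctp2, Dipk1a, Clec2g, Gm15987 and Pld4 were lost.

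Within the members, no gene passed the test between WD tumour and RD no tumour. Over all members edgeR's quasi-likelihood test called 0 of 7206 genes (0.0%), with 500 (6.94%) under an unadjusted p of 0.05 and a lowest adjusted p of 0.712. DESeq2 called 1. With at least 2 genes required it was 0 of 3115 genes (0.0%), with 228 (7.32%) under an unadjusted p of 0.05, and DESeq2 called 10. The values of the groups did not overlap in 884 genes with WD tumour higher (12.3%) and 228 with WD tumour lower (3.16%). With at least 2 genes required these shares were 19.3% and 5.91%, over 3 against 2 mice because RD no tumour 3 has 4 such nuclei, and they cannot be set beside those of 3 against 3.

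The 10 genes of lowest p over all members, nuclei with Atp6v0d2 alone included, are given by their values. Of the members' UMIs those nuclei held 238877 of 342452, 20988 of 122976 and 64766 of 86150 in RD no tumour 1 to 3. In WD tumour 1 to 3 they held 71634 of 220360, 314962 of 528620 and 173340 of 561265. The part of this make-up in the values was not tested. Of the 10 genes, only Cyp2d9 and Nnmt were also among the 10 of lowest p with at least 2 genes required. Nlrp12, a regulator of inflammatory signalling, was at 45.4, 51.1 and 39.2 CPM in WD tumour 1 to 3, 257, 114 and 163 CPM in RD no tumour 1 to 3 and 51.2 CPM in RD tumour 2, with a log2 difference of -2.13 (adjusted p 0.712, edgeR's quasi-likelihood test with Benjamini-Hochberg adjustment). WD tumour and RD no tumour did not overlap, and RD tumour 2 lay with WD tumour. The log2 difference was -3.20 for Cyp4a32 and -2.02 for Cyp2d9, hepatocyte enzymes of families with near-identical copies, -1.47 for Creb3l3, a hepatocyte transcription factor of lipid metabolism, and -2.50 for Nnmt, a methyltransferase of liver. It was -1.68 for Efna5, -2.80 for Tafa2, 1.56 for March3, 1.55 for Zfp704 and 1.32 for Vav3, a leukocyte signalling gene. The adjusted p was 0.712 for each. The 12 hepatocyte markers had a median of -0.94 in this contrast, but none passed and none had WD tumour wholly below RD no tumour. With at least 2 genes required their median was -1.54 and none passed. There 2 of the 12 had WD tumour wholly below RD no tumour, over 3 against 2 mice, against 5.91% of all genes tested. Over all members the 6 tested monocyte markers had a median of -2.48 and the 7 tested neutrophil markers -2.69. At least 2 monocyte UMIs were present in 20 of 73 members of RD no tumour 1 (27.4%), 2 of 16 of RD no tumour 2 and 0 of 14 of RD no tumour 3, and in 5.62% to 8.33% in WD tumour. In RD no tumour 1 the share was 7.69% of hepatocyte nuclei and 8.56% of endothelial nuclei. The part of these transcripts in the differences was not tested.

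No gene of the lists passed, and the lists differed in sign. The 22 tested genes of lipid-associated macrophages had a median of 0.49 over all members, against -0.06 over all genes, but -0.17 with at least 2 genes required (16 tested). Lysosome genes went from 0.33 to -0.22 in the same way, and genes of lipid uptake, storage and efflux from 0.34 to -0.02. Lpl was at 322, 151 and 527 CPM in WD tumour 1 to 3, 75.9, 130 and 58.0 CPM in RD no tumour 1 to 3 and 59.7 CPM in RD tumour 2, so that the reversed mice lay below every WD tumour mouse. Its log2 difference was 1.75 over all members (adjusted p 0.712) and 0.80 with at least 2 genes (adjusted p 0.738, edgeR's quasi-likelihood test with Benjamini-Hochberg adjustment), where the groups overlapped. The 6 tested MHC class II genes were positive with a median of 1.47, and 5 tested with at least 2 genes had a median of 1.91. Markers of other cells that carry MHC class II had the same sign without passing, with a median of 3.16 over 2 tested B cell markers and 0.92 over 2 dendritic cell markers, and their part was not tested. H2-Aa was at 241, 39.7 and 109 CPM in WD tumour 1 to 3, 40.9 and 56.9 CPM in RD no tumour 1 and 2 and 42.7 CPM in RD tumour 2, with no UMI in RD no tumour 3. WD tumour 1 and 3 were high and WD tumour 2 lay within the reversed mice. In Kupffer nuclei H2-Aa was at 188 and 181 CPM in those mice and between 15.1 and 53.2 CPM in the other 5.

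Kupffer genes were read in many members. At least 2 UMIs over Clec4f, Vsig4, Cd5l and Timd4 were present in 61.7%, 39.3% and 40.8% of members in WD tumour 1 to 3, in 28.8%, 62.5% and 35.7% in RD no tumour 1 to 3, and in 35.9% in RD tumour 2. The groups overlapped, and the two-sided exact permutation test over mice gave p = 0.6 for a difference of 4.95 points. With at least 2 genes required they were present in 27 of 36 nuclei of WD tumour 1, 52.9% of WD tumour 2 and 45.2% of WD tumour 3. RD no tumour 1 had 12 of 22 nuclei, RD no tumour 2 had 7 of 10, RD no tumour 3 had 4 of 4 and RD tumour 2 had 36.4%. A reference for free RNA was taken from nuclei that should lack these genes. Members had to carry at least 1 UMI of the 5 leukocyte and macrophage genes and these nuclei none, which selects them for little free macrophage RNA, so their share is a low estimate of the background. It was 0.513% to 8.84% in hepatocyte nuclei (median 4212 to 6161 UMIs) and 2.44% to 8.96% in endothelial nuclei (median 1033.5 to 3573 UMIs), the latter with at least 2 UMIs over Stab2, Ptprb, Flt1 and Kdr and none of the 5 leukocyte and macrophage genes. Members with at least 2 genes were above both in each mouse. In nuclei with Atp6v0d2 alone the share was between 0% and 30.0%.

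**Figure D5:**
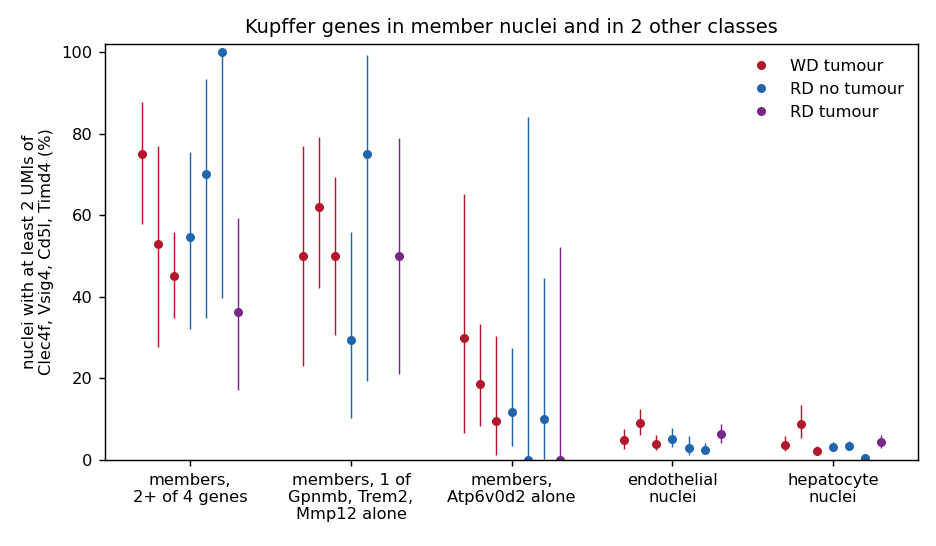
Percent of nuclei with at least 2 UMIs over Clec4f, Vsig4, Cd5l and Timd4 (y axis) in 3 sets of members and in endothelial and hepatocyte nuclei (x axis), 1 point per mouse coloured by group, with exact 95% binomial intervals. Members with at least 2 of the 4 genes lie between 36.4% and 100%, and endothelial and hepatocyte nuclei at 8.96% or lower.

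The libraries held between 17948627 and 32537971 UMIs. No member barcode occurred in more than 1 of the 7 libraries, and the labels name no batch. In RD no tumour 2 a single member nucleus of 57866 UMIs, with each of the 4 genes, held 47.1% of the members' UMIs and 65.3% of those of the set with at least 2 genes. It had 2160 CPM over the 10 hepatocyte genes and 138.3 CPM over the 10 leukocyte genes, so the values of that set in that mouse rest mostly on a nucleus with the hepatocyte sum the higher. Without it the mouse has 9 nuclei in that set, under the 10 required. Without that mouse the count of genes called against Kupffer nuclei, with at least 2 genes required, was 194 in place of 82, and against monocyte nuclei 261 in place of 109. Without WD tumour 3 these counts were 30 and 33, without RD no tumour 1 they were 43 and 50, and without RD tumour 2 they were 52 and 50. Without WD tumour 1 the count against monocyte nuclei was 71. With at least 2 genes required, the calls of Adam8, Gm13963, Myo5a, Igf2bp2, Tenm4, Xylt1, Lrp12, Aig1, Cd163 and Lepr against Kupffer nuclei held in 7 to 9 alternatives each. These were DESeq2, no filter, no mouse block and 1 mouse left out, all within that set. Removal of doublet calls from that set was not among them.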

How the data were processed

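The authors deposited 1 matrix per mouse of raw UMI counts per gene (32285 genes) and barcode. The submitters' processing notes name Cell Ranger 7.0.0 and mm10, without a role for the build. The annotation and the counting of introns and strand are not given in the sources used here. The members, lists and comparisons were chosen with earlier results of these data known.

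Counts were summed per mouse and class for classes of at least 10 nuclei and tested with edgeR 4.0.16 (quasi-likelihood, TMM, filterByExpr, adjusted p under 0.05 by Benjamini-Hochberg). Genes of the rules were left out. DESeq2 1.42.0 was an alternative. CPM values are summed UMIs per 1000000 UMIs of the class. Exact permutation tests over mice were two-sided, doubling the smaller tail. Doublets were called with Scrublet and kept. In 5 of the 7 mice its threshold marked almost no nucleus, so the highest scores up to the expected share were called. The code was tested on simulated data: in the contrast of WD tumour with RD no tumour (7216 genes) 47% of genes changed 4-fold and 92% of those changed 16-fold were recovered, with 7 false calls.

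Named genes were the 15 highest and 10 lowest log2 fold changes past the threshold with 1 direction in every mouse, the 10 lowest p where under 5 genes passed, and listed genes. Each library is 1 mouse. In the contrasts with Kupffer and monocyte nuclei the mouse was a block, so their p-values rest on how the difference within a mouse varied across mice. In the contrast of WD tumour with RD no tumour edgeR's p-values rest on the spread between mice of a group. Exact permutation p-values count arrangements of the mice and are limited by their number. The exact intervals cover counting error only. Several alternatives, such as leaving out nuclei above 30000 UMIs and repeating settings with at least 2 genes required, were chosen after seeing the data. Some listed genes are not reported here.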

Additional observations from a re-analysis of the deposited data

Results flagged for a closer look

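The library left out by the rule, RD tumour 1, held nuclei that met the same thresholds: 205 of 20000, or 1.02% (exact 95% binomial interval 0.890% to 1.17%). It is given here because no comparison above uses it. Of these nuclei 80 had at least 2 of the 4 genes and 55 had Atp6v0d2 alone. The share is inside the range of WD tumour (0.929% to 1.60%) and above the other reversed mice. As a share of macrophage-lineage nuclei (13749 in this library) it was 1.49%, below each WD tumour mouse (2.82% to 6.71%) and within RD no tumour (0.713% to 1.57%). The 10 leukocyte genes were at 1772 CPM in these members and at 1794 CPM in all nuclei of the library. Thinned to 1000 UMIs it was 0.261%, next to RD no tumour 1 at 0.251%. With this library among 5 reversed mice the difference in share from WD tumour was 0.761 points (two-sided exact permutation test over mice, p = 0.0714).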

How the results depend on the processing

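The higher share of members in WD tumour kept its direction in every alternative tried, from 0.204 to 1.60 points of the nuclei kept. The 1.60 is with at most 5% mitochondrial UMIs, a filter that kept a larger part of the members than of all nuclei in WD tumour. The difference was 3.40 points of macrophage-lineage nuclei, and 0.724 to 1.06 points without 1 mouse. The share of members with Kupffer genes did not keep its direction. Its difference was -3.71 points with at least 3 UMIs, -17.2 with at least 2 genes and -0.417 with at least 2 macrophage UMIs. It was -7.53 with at least 2 genes against all reversed mice, and from -2.24 to 15.04 without 1 mouse.

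Between WD tumour and RD no tumour, 1 gene of 7206 was called by DESeq2, 67 of 18603 with no filter and 0 to 1 without 1 mouse. With at least 2 genes these counts were 10, 19 and 0 to 251, the last without RD no tumour 1, which left RD no tumour 2 with its nucleus of 57866 UMIs as the lone mouse of its group, assumed to vary like the others. In that set DESeq2 tested 3115 genes and the fit with no filter 16109. Over all members the replicate number as a block also gave 0 calls of 7206, with 338 unadjusted. The numbers do not pair the mice: same-numbered mice correlated at -0.194, -0.359 and 0.167.

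Against Kupffer nuclei 1457 of 8052 genes tested were called. The count was 543 of 7464 with at least 3 UMIs, 82 of 7086 with at least 2 genes and 209 of 6886 with at least 2 macrophage UMIs. It was 738 of 6538 with none of the excluded genes and 1820 of 7518 with at most 5% mitochondrial UMIs. With nuclei above 30000 UMIs left out it was 1849 of 8068, and with no mouse block 78 of 8052. Without 1 mouse it was 771 to 1732. It was 771 of 8041 without RD no tumour 1, 917 of 8038 without WD tumour 2 and 887 of 8036 without WD tumour 3. Higher and lower calls numbered 881 and 576, but 768 and 1049 of 22210 genes with no filter. For members with at least 2 genes the count was 179 of 21779 with no filter (83 higher and 96 lower, against 56 and 26). It was 19 of 7086 with no mouse block, and from 30 of 6278 to 194 of 7212 without 1 mouse. Hnf4a (-0.027) and Pfkfb1 (-0.011) turned direction with at least 2 genes.

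Against monocyte nuclei 820 of 3876 genes tested were called. The count was 517 of 3475 with at least 3 UMIs, 109 of 2330 with at least 2 genes and 124 of 4321 with at least 2 macrophage UMIs. With no filter it was 1268 of 20563, with no mouse block 182 of 3876, and with nuclei above 30000 UMIs left out 1110 of 3930. Without 1 mouse it was 346 to 1021. It was 346 of 2948 without RD no tumour 1, 385 of 2921 without WD tumour 2 and 544 of 3899 without WD tumour 3. For members with at least 2 genes the count was 216 of 19838 with no filter and 46 of 2330 with no mouse block. Without 1 mouse it ran from 33 of 2329 to 261 of 2337. The cause of these shifts was not tested. With at least 2 genes required, 10 of 33 named calls against Kupffer nuclei and 22 of 43 against monocyte nuclei held in each alternative tried within that set. The sets with at least 2 genes that were tested held 10 to 93 nuclei per mouse.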
